A study of Mus musculus with 3 samples.

Results

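The genes described here are Lin28a, Lin28b, Hmga1, Hmga2, Igf2bp1, Igf2bp2 and Igf2bp3, which encode RNA- and chromatin-binding proteins typical of early embryonic cells. Their chromatin accessibility was followed in Hic1-lineage mesenchymal progenitors (MPs) of the mouse forelimb by single-cell ATAC-seq, in which a transposase cuts accessible DNA in single nuclei. Every accessible region (peak) that overlapped 1 of the 7 gene bodies or the 2000 bp before the gene was taken, and overlapping peaks of the libraries were merged. This gave 109 regions of 266531 in the whole data set, namely 8 promoter regions, 100 regions inside the genes and 1 region just upstream of Lin28a. A region was called promoter when it reached into the window from 1000 bp before to 100 bp after an annotated start site, and intragenic when it otherwise overlapped the gene.

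There were 3 libraries, 1 for each of the embryonic stages E12.5, E14.5 and E16.5 (days after conception), and all came from Hic1CreERT2/CreERT2;Rosa26LSLtdTomato/tdTomato embryos on the C57BL/6J background. Dams had been given tamoxifen by gavage at E10, so that cells using the Hic1 promoter at that time, and their progeny, carried the red reporter. Sorted cells were tdTomato-positive and negative for CD45, CD117, CD31, CD11b, F4/80 and Ter119. The labels give the forelimb for the 2 earlier stages, but for E16.5 they give its elbow segment, with the adjoining ends of stylopod and zeugopod. The methods give digestion with Dispase at E12.5 and with Collagenase A, Pronase and DNase later, and limb pairs were pooled. No stage had a second library, so no test between stages was possible, and stage and library cannot be told apart. The digestion changed with the step from E12.5 to E14.5 and the limb segment with the step to E16.5, and neither can be told apart from that step. Fewer nuclei of a type and less open chromatin per nucleus cannot be told apart in summed levels either.

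LIN28A and LIN28B bind the precursors of the let-7 microRNAs and block their maturation. Mature let-7 in turn represses mRNAs that carry its sites, among them Lin28a, Lin28b, Hmga2 and Igf2bp1, so that the proteins of this group and let-7 oppose each other. The circuit is known for setting the timing of development and growth, and its early components decline in most tissues as development proceeds. HMGA proteins are architectural proteins that bind the minor groove of AT-rich DNA, and IGF2BP proteins bind mRNAs and govern their stability, transport and translation.

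The libraries held 8294, 20023 and 14048 nuclei, with 87048167, 204289151 and 413425059 cut sites, in order of stage. Member regions took 0.0622%, 0.0623% and 0.0559% of these. The E14.5 peak list was the shortest, with 102459 peaks against 190443 at E12.5 and 213613 at E16.5, and its share of counts in promoter regions was the largest, at 53.8% against 40.6% and 37.9%. Between pairs of libraries 151 to 401 nuclear barcodes were the same. Promoters of all 8 mesenchymal markers tested, Hic1 among them, were called in every library. Of 4 blood markers, Tal1 alone had a called promoter, whereas 5 or 6 of 6 endothelial promoters, 2 to 4 of 4 epithelial and 2 or 3 of 4 myogenic ones (Myh3 in none) were called in each library. In order of stage, the summed level was 681, 755 and 774 CPM for the mesenchymal list and 86.8, 118 and 88.5 CPM for the endothelial one. It was 20.1, 26.05 and 34.2 CPM for the epithelial list and 30.0, 15.6 and 21.2 CPM for the myogenic one. The part of other cells in the results was not tested. The level of a region is given as CPM, the cut sites in it per 1000000 cut sites in autosomal regions called in all 3 libraries. Intervals in parentheses are exact 95% intervals of the number of fragments and cover counting error only.

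The let-7 family joins most of these genes at the level of their mRNAs, and its sequences are shown to make that link readable. All 9 mature let-7 and miR-98 sequences examined (RefSeq, GRCm38.p6) shared the seed GAGGUAG at bases 2 to 8. Of the family, let-7e and let-7i had a region called in every library over the gene or the 2000 bp before it. These 2 are shown, with the seed in capitals.
mmu-let-7e-5p: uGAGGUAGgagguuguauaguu
mmu-let-7i-5p: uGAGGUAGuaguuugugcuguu

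The complement of the seed, CTACCTC, was counted in the longest annotated 3′ untranslated sequence of each gene. It occurred 4 times each in Lin28b, Hmga2 and Igf2bp1, 2 times in Lin28a and 1 time each in Hmga1, Igf2bp2 and Igf2bp3. Across 20902 genes, 9.05% held at least 1 match. Among genes with a sequence of similar length, 4 or more matches were present in 0.296% for Lin28b, 0.124% for Hmga2 and 0.331% for Igf2bp1, and 2 or more in 1.99% for Lin28a. A single match or more was present in 8.09%, 12.2% and 13.5% of genes similar in length to Hmga1, Igf2bp2 and Igf2bp3. The first match of each of the 3 genes is shown, from chr10:45381022-45381049 (Lin28b), chr10:120364224-120364251 (Hmga2) and chr11:95961778-95961805 (Igf2bp1), all on the minus strand of mm10, with the match in capitals.
Lin28b: ccttcacccgggcgggaagtCTACCTCa
Hmga2: ggggcgccgacattcaatttCTACCTCa
Igf2bp1: gcagtgctgtgcgaagtaaaCTACCTCa

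The intragenic regions whose level changed most between E12.5 and E16.5 are printed next, as the central 300 bases of the stretch called in all libraries (mm10, plus strand). Capitals mark matches, on either strand, to the SP/KLF box GGGCGG, the NFY box CCAAT, the AP-1 motif TGANTCA, the TEAD motif GGAATG, the RUNX motif TGTGGT or the palindromic NFI motif. The first 3 lines are the largest rises, in Igf2bp3 (chr6:49096738-49097037), Hmga2 (chr10:120429204-120429503) and Igf2bp2 (chr16:22108142-22108441). The last 3 lines are the largest falls, all in Hmga2 (chr10:120388338-120388637, chr10:120438290-120438589 and chr10:120461823-120462122).
Igf2bp3, 118 kb from the gene start: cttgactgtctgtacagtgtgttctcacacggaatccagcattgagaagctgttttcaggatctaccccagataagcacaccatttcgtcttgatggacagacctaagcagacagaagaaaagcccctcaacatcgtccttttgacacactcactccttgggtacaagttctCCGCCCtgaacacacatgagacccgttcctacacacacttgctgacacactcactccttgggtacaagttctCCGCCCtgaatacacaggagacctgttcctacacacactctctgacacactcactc
Hmga2, 46.4 kb: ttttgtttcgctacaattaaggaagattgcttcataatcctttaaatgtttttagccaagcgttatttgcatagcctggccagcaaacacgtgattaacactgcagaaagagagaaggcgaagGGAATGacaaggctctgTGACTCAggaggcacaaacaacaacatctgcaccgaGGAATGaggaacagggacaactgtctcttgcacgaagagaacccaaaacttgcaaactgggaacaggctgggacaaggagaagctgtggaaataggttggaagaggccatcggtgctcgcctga
Igf2bp2, 55.1 kb: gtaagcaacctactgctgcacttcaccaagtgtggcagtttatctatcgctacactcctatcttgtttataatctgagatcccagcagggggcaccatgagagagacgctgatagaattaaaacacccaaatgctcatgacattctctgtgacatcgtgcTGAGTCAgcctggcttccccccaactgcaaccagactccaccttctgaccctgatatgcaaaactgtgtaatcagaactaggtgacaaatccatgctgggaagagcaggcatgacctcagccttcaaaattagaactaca
Hmga2, 88.5 kb: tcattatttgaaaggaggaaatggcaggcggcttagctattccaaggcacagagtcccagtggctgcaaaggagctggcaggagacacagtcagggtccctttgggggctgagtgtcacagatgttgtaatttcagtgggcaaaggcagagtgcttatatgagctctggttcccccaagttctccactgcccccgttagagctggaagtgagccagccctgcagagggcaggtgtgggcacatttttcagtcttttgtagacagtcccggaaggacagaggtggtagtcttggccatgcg
Hmga2, 37.8 kb: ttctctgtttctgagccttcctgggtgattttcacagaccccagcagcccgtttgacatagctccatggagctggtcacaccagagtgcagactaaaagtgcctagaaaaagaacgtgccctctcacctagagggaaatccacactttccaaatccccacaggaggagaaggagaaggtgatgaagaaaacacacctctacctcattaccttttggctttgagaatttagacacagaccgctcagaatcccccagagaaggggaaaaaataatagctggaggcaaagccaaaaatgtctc
Hmga2, 14.6 kb: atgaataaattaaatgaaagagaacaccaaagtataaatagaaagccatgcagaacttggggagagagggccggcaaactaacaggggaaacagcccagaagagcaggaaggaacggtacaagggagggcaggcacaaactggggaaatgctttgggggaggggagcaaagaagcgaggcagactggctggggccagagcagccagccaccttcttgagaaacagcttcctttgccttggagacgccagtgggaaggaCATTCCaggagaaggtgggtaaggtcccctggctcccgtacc

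The rising Hmga2 window held an AP-1 match and 2 TEAD matches, and the rising Igf2bp2 window held an AP-1 match. The Igf2bp3 window held 2 SP/KLF matches, each inside a stretch of 40 bases that was present in 2 exact copies starting 72 bases apart. The 3 falling windows held 1 match among them, to TEAD. Among all 36 intragenic regions called in every library, 8 (22.2%) held an AP-1 match in the central 300 bases, against 13.2% of 32711 such regions of all protein-coding genes. RUNX matches were present in 4 (11.1%) against 22.3%, and TEAD matches in 6 (16.7%) against 22.8%. No NFI match was found in the 36 windows, against 0.205% of all regions. In the 8 promoter windows the median GC content was 67.5% (range 44% to 78%), beside 64.7% for 14360 promoter regions, and SP/KLF matches were present in 3 (37.5%) against 57.5%.

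Most promoters of the group were open at every stage and their levels changed little. Of the 8 promoter regions, 2 fell by at least 1.5-fold from E12.5 to E16.5, namely those of Lin28a and of the coding start of Lin28b, and 0 rose. Among 14383 autosomal promoter regions called in all libraries, 9.87% fell and 6.2% rose by as much. Divided by called width, 2 fell and 0 rose, where 14.1% and 2.35% of all promoter regions did. The median log2 ratio of the 8 was -0.29 (range -3.42 to 0.06), beside -0.01 for all promoter regions, and 7 of 8 were below 0. Between E12.5 and E14.5 the median was 0.06 (all promoters 0.25), and between E14.5 and E16.5 it was -0.40 (all -0.28). These steps depended on the scale, since per kb the medians were 0.55 and -0.83 (all promoters 0.50 and -0.67). Scaled to the median of all promoter regions they were -0.18 and -0.12. Leaving out the deepest 5% of nuclei brought the E16.5 over E12.5 median to -0.15.

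**Figure D1:**
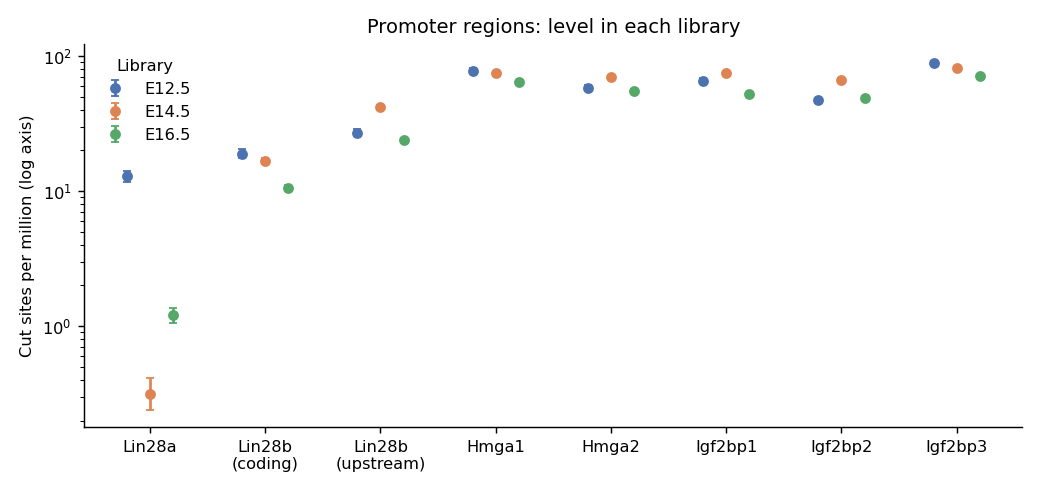
Level of each promoter region (CPM, log axis) in the E12.5, E14.5 and E16.5 libraries, with exact 95% counting intervals as bars; 1 library per stage. The promoters of both Hmga and all 3 Igf2bp genes lie between 46.7 and 87.9 CPM at every stage, those of Lin28b lower, and that of Lin28a drops from 12.9 to 0.316 and 1.2 CPM. Levels are not divided by called width, which differs between the promoters.

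Lin28a, the pluripotency-associated LIN28 gene, had the lowest promoter of the group. Its promoter region (chr4:134016885-134019776, first exon and 5′ flank, shared with Gm13061) was at 12.9 CPM (11.7 to 14.1) at E12.5, 0.316 CPM (0.239 to 0.410) at E14.5 and 1.2 CPM (1.05 to 1.36) in the E16.5 library. The E12.5 level lay above both later ones, and the log2 ratio E16.5 over E12.5 was -3.42 (-3.65 to -3.20), a fall as large in 0.076% of all promoter regions. The called width moved with the level, from 2892 bp to 131 bp and 567 bp, and divided by that width the ratio was -1.07 (log2), a fall as large in 2.26% of promoter regions on that scale. In E12.5 nuclei 12.2% of 14594 genes had a lower promoter level, and at E14.5 and E16.5 0.151% and 0.281% had. The region just upstream of the gene (chr4:134020395-134021087), by contrast, was at 3.93, 3.30 and 4.77 CPM, which are within 1.5-fold of each other. The bases just upstream of the RefSeq start are printed for the 2 promoters that fell, 225 for Lin28a (chr4:134018842-134019066) and 250 for Lin28b (chr10:45470202-45470451), both on the minus strand of GRCm38.p6.
Lin28a: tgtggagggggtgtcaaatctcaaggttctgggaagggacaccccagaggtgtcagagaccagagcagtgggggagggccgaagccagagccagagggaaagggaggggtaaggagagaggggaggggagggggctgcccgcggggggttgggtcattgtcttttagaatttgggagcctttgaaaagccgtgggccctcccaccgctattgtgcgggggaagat
Lin28b: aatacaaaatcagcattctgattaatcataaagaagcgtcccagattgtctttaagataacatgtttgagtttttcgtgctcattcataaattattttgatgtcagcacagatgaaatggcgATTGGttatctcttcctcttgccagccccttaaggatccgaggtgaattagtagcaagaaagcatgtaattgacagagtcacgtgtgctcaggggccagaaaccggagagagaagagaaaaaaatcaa

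The Lin28a flank had a GC content of 61.3% and held no match to the motifs above, and the Lin28b flank had a GC content of 39.2% and held 1 NFY match, in capitals. RefSeq flanks were found for 6 of the 7 genes, Igf2bp1 being the one without an entry.

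Lin28b, the paralogue of Lin28a, has a coding start and an annotated start further upstream, and each had its own promoter region. The region at the coding start (chr10:45467701-45470723) was at 18.9 CPM (17.5 to 20.3), 16.8 CPM (15.98 to 17.6) and 10.5 CPM (10.1 to 11.04), from the earliest to the latest stage. It was lowest at E16.5, with a log2 ratio to E12.5 of -0.84 (-0.97 to -0.71), and per kb it was -0.71. The upstream promoter (chr10:45485337-45487263) was at 26.99, 42.0 and 23.8 CPM, highest at E14.5, with a log2 ratio E16.5 over E12.5 of -0.18 (-0.28 to -0.08). An intragenic region between the 2 promoters (chr10:45472874-45474126), the only one of 8 in the gene called in every library, was at 6.59, 3.73 and 3.20 CPM. Its log2 ratio was -1.04 (-1.26 to -0.82), and in CPM its fall lay mainly in the first step (-0.82, then -0.22), whereas that of the coding-start promoter lay in the second (-0.17, then -0.67). Per kb the steps were -0.29 and -0.55 for the region, and 0.08 and -0.79 for the promoter.

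Hmga1 and Hmga2, the 2 HMGA genes, both kept open promoters. The Hmga1 promoter region (chr17:27554203-27559434) was at 77.8, 74.4 and 64.4 CPM, and 88.8% to 94.2% of genes had a lower promoter level. The Hmga2 promoter region (chr10:120472822-120478779) was at 57.9 CPM (55.5 to 60.4), 70.2 CPM (68.5 to 71.8) and 55.4 CPM (54.3 to 56.5). The E12.5 and E16.5 values differed by a log2 ratio of -0.06, whose counting interval of -0.13 to 0.00 reaches 0. Hmga1 has a single region beyond its promoter, towards its 3′ end (chr17:27560981-27562666), at 5.36, 3.36 and 10.2 CPM. Its log2 ratio of 0.93 (0.72 to 1.15) came with called widths of 859 and 1686 bp in the first and last library, and per kb it was -0.04.

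In CPM the promoters of the IGF2BP genes were high throughout. Their called widths were 3107 to 7171 bp over the libraries, against 1600 to 1876 bp for the upstream promoter of Lin28b. Levels were not divided by called width, so the order of promoters by level is one of CPM only. The Igf2bp3 promoter region (chr6:49208606-49216314) was at 87.9, 81.0 and 71.4 CPM. The Igf2bp1 promoter region (chr11:96003032-96008401, also holding the starts of Gm29202 and Gm37179) was at 65.6, 74.96 and 52.3 CPM. The Igf2bp2 promoter region (chr16:22160331-22164516) was at 46.7, 66.6 and 48.8 CPM. Log2 ratios E16.5 over E12.5 were -0.30 (-0.36 to -0.24), -0.33 (-0.39 to -0.26) and 0.06 (-0.01 to 0.14) for Igf2bp3, Igf2bp1 and Igf2bp2. All 3 were within 1.5-fold, and Igf2bp2 alone had an interval that reached 0.

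Inside the genes the picture was more mixed. Of 36 intragenic regions called in all libraries, 16 fell and 10 rose by at least 1.5-fold from E12.5 to E16.5, where 28.7% and 30.6% of 33159 intragenic regions of all protein-coding genes did. The median log2 ratio was -0.49 (range -2.89 to 4.10), beside -0.01 for all intragenic regions. Per kb of called width 14 fell and 6 rose (26.5% and 16% of all regions), with a median of -0.36 beside -0.17. The level changed in the same direction over both steps in 16 of the 36, 10 of them downward, against 40.2% of all intragenic regions. In a further 16 the E14.5 level was the lowest (46.6% of all), and the median called width was 690 bp at E14.5 against 1130 bp and 1210 bp, so the part of width in these dips was not tested. Regions with an AP-1 match comprised 5 that rose and 1 that fell out of 8, and regions without one 5 that rose and 15 that fell out of 28. Per kb these counts were 3 and 0 with the match, and 3 and 14 without it. In all intragenic regions 37.1% with the match rose and 25.6% fell, and without it 29% rose and 29.3% fell. Per kb 22.4% with the match rose and 23.2% fell, and 14.7% without it rose and 27.1% fell.

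**Figure D2:**
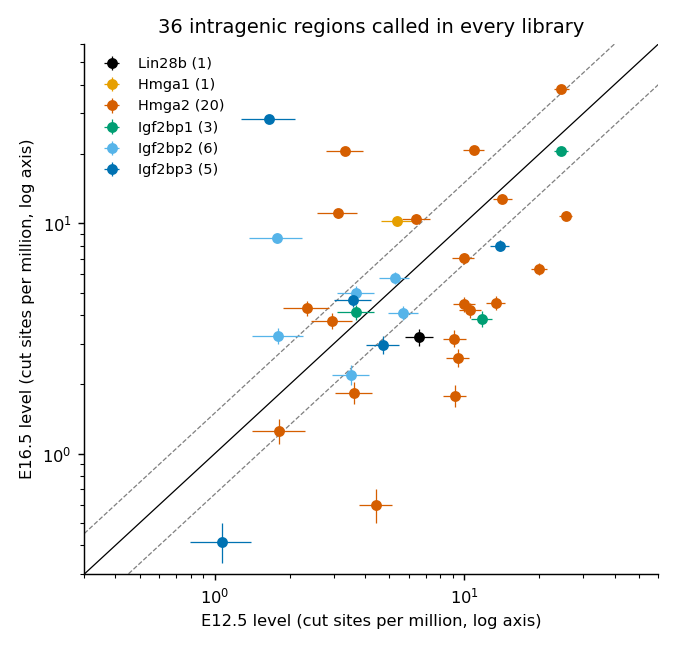
Level of the 36 intragenic regions called in every library at E12.5 (x) and E16.5 (y), both in CPM on log axes, coloured by gene, with exact 95% counting intervals. Dashed lines mark 1.5-fold; 10 regions lie above the upper and 16 below the lower line, and an Igf2bp3 region at 1.65 and 28.3 CPM lies farthest from equality.

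Hmga2, which encodes the HMGA protein that is a leading let-7 target, held 20 of these 36 regions, spread over a gene of 115 kb. From E12.5 to E16.5, 10 of its 20 regions fell and 6 rose, where 28.7% and 30.6% of all intragenic regions did. Per kb of called width 10 fell and 4 rose, where 26.5% and 16% of all intragenic regions did. The 4 that rose on both scales lay at 46.4, 49.9, 54.1 and 74.4 kb from the gene start, all in the third intron, which is the longest, while falling regions lay on both sides and among them. The strongest region of the gene body on average, at 54.1 kb (chr10:120420305-120424508), was at 24.5 CPM (23.0 to 26.2), 27.1 CPM (26.1 to 28.2) and 38.4 CPM (37.5 to 39.4). It was highest at E16.5, with a log2 ratio of 0.65 (0.55 to 0.75).

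The largest rise in Hmga2, at 46.4 kb (chr10:120428301-120431871), went from 3.32 CPM (2.79 to 3.93) through 8.16 CPM (7.62 to 8.73) to 20.6 CPM (19.96 to 21.3). Its log2 ratio E16.5 over E12.5 was 2.63 (2.39 to 2.89), a 6.21-fold rise, and 1.16 per kb of called width. The region is intronic and 4.86% of all intragenic regions rose as far. The 3 largest falls were also in Hmga2. The region at 88.5 kb (chr10:120387319-120388694) was at 4.42, 4.43 and 0.596 CPM, so that it fell in the second step, with a log2 ratio of -2.89 (-3.22 to -2.56). Its called width was 1262, 1182 and 290 bp, and per kb the ratio was -0.77. The region at 37.8 kb (chr10:120437918-120439458) was at 9.17, 4.41 and 1.79 CPM, with a ratio of -2.36 (-2.58 to -2.14) and of -1.23 per kb. Its called width was 1541, 695 and 704 bp, and per kb the log2 ratio was 0.09 in the first step and -1.32 in the second. The region at 14.6 kb (chr10:120461312-120462466) was at 9.43, 1.198 and 2.60 CPM, with a ratio of -1.86 (-2.06 to -1.66). Its called width was 945, 216 and 949 bp, and its per-kb ratio was -1.87, with steps of -0.85 and -1.02, so that the rise in CPM from E14.5 to E16.5 was not there per kb. Of all intragenic regions 7.46% fell as far in CPM and 1.38% per kb.

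A pair of strong regions of Hmga2 fell to a like degree with and without division by called width, and both were singled out after their values were seen. The one at 58.2 kb (chr10:120416980-120419568) was at 19.9, 10.1 and 6.32 CPM, with a log2 ratio E16.5 over E12.5 of -1.66 (-1.79 to -1.52) and of -1.52 per kb. The one at 111 kb, near the 3′ end and shared with 1700006J14Rik (chr10:120364675-120367036), was at 25.5, 16.1 and 10.8 CPM, with a ratio of -1.24 (-1.35 to -1.12) and of -1.10 per kb. Both were highest at E12.5 and lowest at E16.5 in CPM. Their called widths were 2577, 1752 and 2350 bp at 58.2 kb and 2362, 1362 and 2142 bp at 111 kb, and per kb the first step was -0.42 and 0.13. At E12.5 they ranked with the region at 54.1 kb as the strongest of the gene body, and at E16.5 the region at 54.1 kb stood above both.

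**Figure D3:**
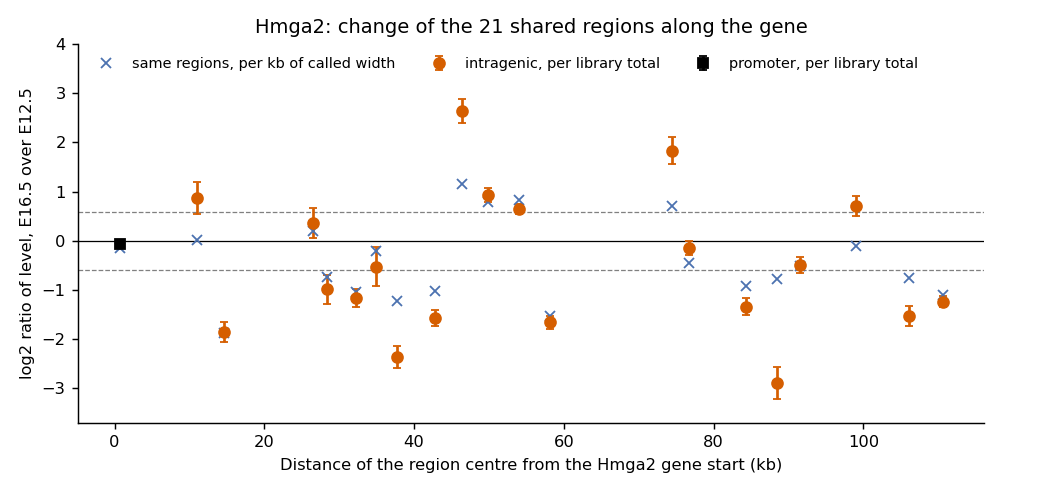
Log2 ratio of level, E16.5 over E12.5, of the 21 Hmga2 regions called in every library against the distance of the region centre from the gene start (kb); bars are exact 95% counting intervals, crosses the same ratio per kb of called width, dashed lines 1.5-fold. The promoter (square) sits at -0.06, whereas regions in the gene range from -2.89 to 2.63 with no common direction.

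The promoter and the gene body of Hmga2 therefore gave different values, with a promoter ratio of -0.06 and intragenic ratios of both signs. Summed over its 20 intragenic regions and the promoter, Hmga2 was at 253, 221 and 226 CPM, a log2 ratio E16.5 over E12.5 of -0.16 (-0.19 to -0.13). Antisense or nested genes share some of the regions called in every library, namely 1700006J14Rik with 4 regions at 91.5 to 111 kb, 9230105E05Rik with the one at 84.3 kb and Mir763 with the one at 28.4 kb. ATAC-seq carries no strand, so a region cannot be assigned to either gene.

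The largest change of the group from E12.5 to E16.5 was in Igf2bp3, an IGF2BP member known as an oncofetal protein. An intronic region 118 kb from the gene start, towards its 3′ end (chr6:49096057-49097917), was at 1.65 CPM (1.27 to 2.10), 8.83 CPM (8.26 to 9.42) and 28.3 CPM (27.5 to 29.1). It rose in both steps, 17.2-fold in all, with a log2 ratio of 4.10 (3.75 to 4.48) and of 2.96 per kb of called width. In all intragenic regions 1.2% rose as far, and 0.0452% did per kb. The other 4 shared intragenic regions of Igf2bp3 did not follow it, since 3 fell and 1 stayed within 1.5-fold (28.7% of all fell). Per kb 1 of the 3 falls remained past that limit (26.5% of all intragenic regions). The strongest of these 4, at 46.1 kb (chr6:49168370-49169293), was at 13.9, 7.44 and 7.99 CPM, with a log2 ratio of -0.80 (-0.94 to -0.65) and of -0.47 per kb. This region, the falling Igf2bp1 region described next and the Hmga2 regions at 49.9 and 74.4 kb were singled out after their values were seen.

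In Igf2bp2 the median of 6 shared intragenic regions was 0.29, with 2 that rose and 1 that fell (30.6% and 28.7% of all). The larger rise, at 55.1 kb (chr16:22107635-22108670), was at 1.77, 0.301 and 8.65 CPM, with a log2 ratio E16.5 over E12.5 of 2.29 (1.94 to 2.66) and of 1.19 per kb. The E14.5 value rests on 67 bp of called width. The strongest region of the gene body on average, at 82.6 kb (chr16:22080097-22081249), was at 5.26, 11.03 and 5.79 CPM and was highest at E14.5, with nearly the same called width in all libraries (1030 to 1153 bp). Igf2bp1 had 3 shared intragenic regions, of which 1 fell, where 28.7% of all intragenic regions did. That one, at 23.1 kb (chr11:95982195-95983425), was at 11.7, 6.75 and 3.84 CPM, with a log2 ratio of -1.61 (-1.79 to -1.43) and of -1.06 per kb. The Igf2bp1 region with the highest mean CPM, at 15.1 kb (chr11:95988166-95993428), was at 24.5, 13.7 and 20.6 CPM, within 1.5-fold between E12.5 and E16.5. Its called width was 4713, 1798 and 5027 bp, against 1231, 755 and 837 bp for the falling region. At 15.1 kb the log2 ratio E16.5 over E12.5 was -0.25, and -0.34 per kb.

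Which libraries a region was called in varied with the gene. Of 100 intragenic regions 36 were called in all libraries, 23 at E12.5 and E16.5, 29 at E16.5 alone, 11 at E12.5 alone and 0 at E14.5 alone. The shares among all intragenic regions were 27.2%, 19.1%, 30%, 19.9% and 0.209%. The member counts include slivers of peaks, such as regions of 1 and 7 bp at E16.5 alone and of 4 and 14 bp at E12.5 alone. Depth differed between the libraries, and its part in the calls was not tested. Of the 30 intragenic regions of Hmga2, 20 were called in all libraries, whereas in Igf2bp2 6 of 24 and in Igf2bp3 5 of 25 were. The strongest region called at E12.5 alone was in Hmga2 (chr10:120470922-120471615, 1.99 CPM), and so was the strongest called at E16.5 alone (chr10:120415129-120416197, 3.81 CPM).

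**Figure D4:**
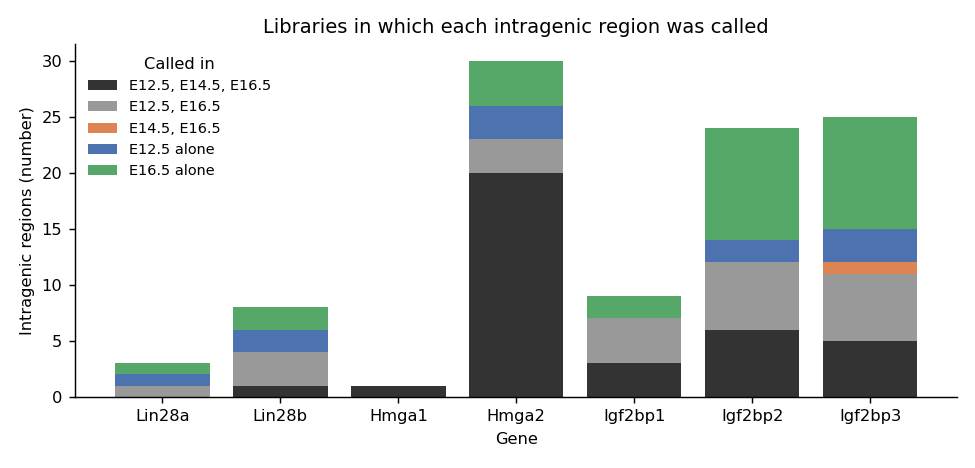
Number of intragenic regions of each gene by the libraries in which a peak was called (1 library per stage). Hmga2 has 20 of 30 regions in the class called in all libraries, and Igf2bp2 and Igf2bp3 have the most called at E16.5 alone.

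The levels above are sums, and the same regions were also read as the share of nuclei with a fragment. Each nucleus was thinned to 1309 fragments, the lower quartile of E12.5, and 2073, 502 and 214 shallower nuclei were left out. The Igf2bp3 region at 118 kb was then hit in 0.221% (0.123 to 0.377), 1.06% (0.926 to 1.22) and 2.73% (2.47 to 3.02) of nuclei, from the earliest to the latest stage. Without thinning these were 0.736%, 4.15% and 24.4%. The Lin28a promoter was hit in 1.249%, 0.0636% and 0.141% of nuclei, and the Hmga2 promoter in 4.89%, 7.66% and 5.38%. The median of 200 promoter regions taken evenly along the genome was 3.14%, 4.19% and 3.03%. These shares were counted in the same called peaks as the levels and so carry the same differences in called width. The Hmga2 promoter was highest at E14.5 on both readouts, while its E12.5 and E16.5 values changed places.

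Nuclei were also gated on the loci of lineage genes, taking in each library the 10% with the largest excess of fragments at those loci. A gate is a range of a score and not a cell type, and 246 to 1254 nuclei lay within 0.25 units of a gate's limit. Loci of 5 further genes per lineage that had no part in the gate served as a check. For cartilage the check loci were higher in gated nuclei by a log2 ratio of 0.91 at E14.5 and 2.05 at E16.5, but by 0.17 at E12.5. For the tenogenic, fibrogenic and dermal fibrogenic gates the ratio was between -0.10 and 0.32 in every library, so these gates were weakly separated at best. For the fibrogenic gate 4 of the 5 check loci had a peak at E12.5 and at E14.5. Of these 4, 0 at E12.5 and 2 at E14.5 lay above the median of all intragenic regions, so this gate did not pass its check at E12.5. Gates also shared nuclei, between 190 and 572 of each gate.

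In the cartilage gate the member promoters gave small ratios. Summed over the 8 promoter regions, the log2 ratio of gated over other nuclei was 0.03 (-0.01 to 0.07) at E16.5, beside a median of 0.14 for all promoter regions, and 0.09 (0.05 to 0.13) at E14.5, beside 0.03. At E12.5 it was 0.15 (0.08 to 0.23), beside 0.06, with Hmga2 highest at 0.35 (0.17 to 0.53). In the other gates at E16.5 the Lin28a promoter was at -1.05 (-1.98 to -0.25) in tenogenic-gated nuclei, on 13 gated fragments, and with the 5% gate at -0.56 (-1.70 to 0.39) on 9. In dermal fibrogenic-gated ones the Hmga2 promoter was at 0.38 (0.30 to 0.47) and that of Hmga1 at 0.30 (0.22 to 0.38), beside 0.03 for all promoter regions. Intragenic regions of Hmga2 together were higher in cartilage-gated nuclei, by 0.30 (0.25 to 0.35) at E16.5 and 0.15 (0.08 to 0.22) at E14.5, beside -0.14 and -0.11 for all intragenic regions. Those of Igf2bp1 were at 0.34 (0.22 to 0.45) and 0.27 (0.09 to 0.45), and those of Igf2bp2 at -0.36 (-0.47 to -0.26) and 0.08 (-0.13 to 0.28). In dermal fibrogenic-gated E16.5 nuclei the intragenic sums were 0.14 (0.09 to 0.19) for Hmga2 and 0.73 (0.54 to 0.93) for Lin28b. For Lin28a and Hmga1 they were -0.74 (-1.27 to -0.25) and -0.35 (-0.59 to -0.11). For Igf2bp1, Igf2bp2 and Igf2bp3 they were 0.14, 0.07 and 0.08, beside -0.19 for all intragenic regions. In this gate at E14.5 Igf2bp1 was at 0.34 (0.17 to 0.52) and Hmga2 at -0.14, beside -0.14. Single regions stood further apart. The Hmga2 region at 99.0 kb, shared with 1700006J14Rik and named after its values were seen, held 18.4 fragments per 1000000 in cartilage-gated E16.5 nuclei and 7.40 in the others, a log2 ratio of 1.31 (1.14 to 1.48). The ratio was 0.84 (0.63 to 1.05) at E14.5 and 0.36 (-0.22 to 0.90) at E12.5.

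The Igf2bp2 region at 82.6 kb had the largest gate ratio given here, in the tenogenic gate, and was singled out for it after the ratios were seen. The check loci of that gate reached a log2 ratio of 0.18 at E16.5. In tenogenic-gated E16.5 nuclei the region held 15.7 fragments per 1000000 against 3.49 in the others, a log2 ratio of 2.17 (1.98 to 2.37). The ratio was 0.64 (0.40 to 0.87) at E14.5 and 0.18 (-0.46 to 0.77) at E12.5. In fibrogenic- and dermal fibrogenic-gated E16.5 nuclei the same region was lower, with ratios of -1.63 and -1.62. The Hmga2 region at 74.4 kb, which rose with stage, was higher in fibrogenic-gated E16.5 nuclei, at 14.4 against 8.26 fragments per 1000000 and a ratio of 0.80 (0.63 to 0.97), and lower in cartilage-gated ones, at -0.78 (-1.08 to -0.51). The Igf2bp3 region at 118 kb was higher in fibrogenic-gated E16.5 nuclei, with a ratio of 0.41 (0.29 to 0.53) beside -0.12 for all intragenic regions. In the cartilage, tenogenic and dermal fibrogenic gates its ratios were 0.13, -0.05 and 0.10, beside -0.14, -0.03 and -0.19 for all intragenic regions. These ratios had intervals that reached 0. The rising Hmga2 region at 46.4 kb had ratios of 0.26, 0.10, -0.36 and 0.36 in the cartilage, tenogenic, fibrogenic and dermal fibrogenic gates. The medians of all intragenic regions in these gates were -0.14, -0.03, -0.12 and -0.19.

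**Figure D5:**
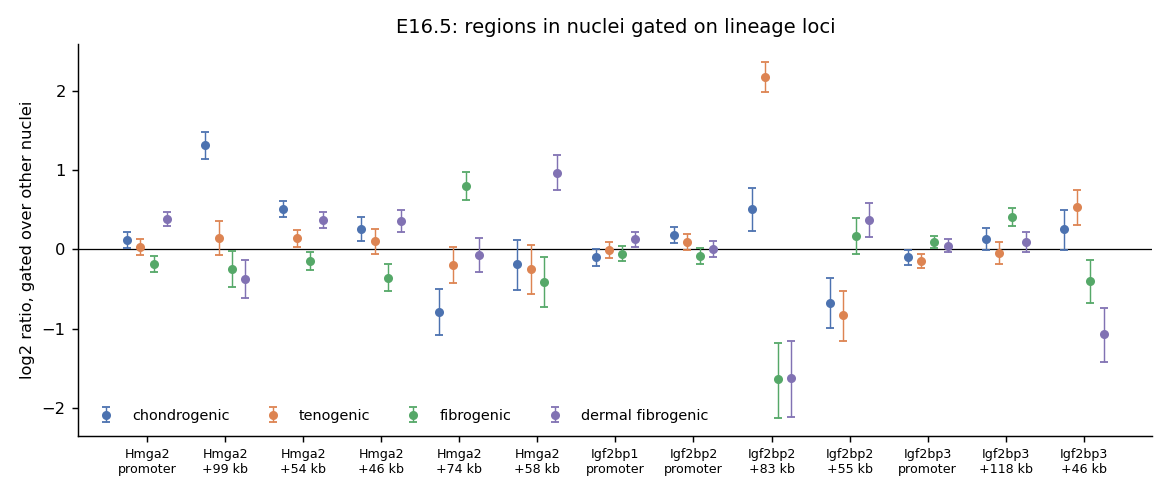
Log2 ratio of the share of fragments in gated over other nuclei of the E16.5 library for 13 promoter and intragenic regions (kb from the gene start) and 4 lineage gates, with exact 95% counting intervals. The Igf2bp2 region at 83 kb reaches 2.17 in the tenogenic gate and lies below -1.6 in both fibrogenic gates, while the 4 promoters drawn lie between -0.18 and 0.38.

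Around the members, the list of the let-7 circuit comprised 36 further genes, of which 26 had a region called in all libraries. Summed over such regions, 1 gene rose and 0 fell by at least 1.5-fold from E12.5 to E16.5, where 6.25% and 8.34% of 15940 autosomal protein-coding genes did. That gene was Ago2, the slicing Argonaute, at 82.1, 103 and 130 CPM with a log2 ratio of 0.66 (0.61 to 0.72), and -0.02 per kb of called width. On the same sums 1 member fell and 0 rose, namely Lin28a with -1.49 (-1.64 to -1.35), and per kb its ratio was -0.03. The 12 let-7 and miR-98 loci were each taken with the 2000 bp before the gene. Of these only Mirlet7e and Mirlet7i had a region called in every library, at ratios of -0.22 (-0.28 to -0.17) and 0.29 (0.22 to 0.36). The 13 targets and growth partners, Myc, Mycn and Igf1r among them, ranged from -0.50 for Arid3b to 0.52 for Arid3a. The 7 microRNA-processing genes had a median of 0.00 and the 4 partners in decay and repression one of 0.03.

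Genes close in promoter level were sought for Lin28b, Hmga2 and Igf2bp1. By Euclidean distance of log2 promoter CPM over the 3 libraries, the nearest of 14593 genes to Lin28b were Fbxo44 and Fbxo2, which share a promoter region, and Dlg1, at 0.07 to 0.08. Nearest to Hmga2 were Nck1, Atf2 and Cetn3 (0.02 to 0.03), and to Igf2bp1 Pus10 and Pex13, again with a common region, and Pwwp2a (0.05). Within a distance of 0.25 lay 133, 764 and 411 genes, respectively.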

How the data were processed

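Single-cell ATAC-seq was read from 3 deposited libraries, 1 per stage. Per the file headers and the processing notes, the authors made the peak by nucleus counts, whole numbers of transposase cut sites, with Cell Ranger ATAC against mm10 (version 1.1.0 in the notes, 1.0.1, 1.0.1 and 1.2.0 in the headers, in order of stage) and called peaks in each library separately. Barcodes kept by that software were all used, and no doublet caller was run.

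Peaks overlapping by at least 1 bp were merged into regions, and a region was compared only where every library had a peak in it. Since each library was called separately, the called width within a region differed, and ratios per kb of called width are given beside ratios of CPM. The cut sites of each peak in each nucleus were divided by 2, rounded up and summed to give fragment equivalents. Exact 95% intervals were computed from them (Poisson for levels, Clopper-Pearson for ratios and shares). These cover counting error only. A region counted as changed at 1.5-fold. Genes and start sites were those of GENCODE vM21 basic (GRCm38). Python 3.11.15, NumPy 2.4.6, SciPy 1.17.1, pandas 2.3.3 and matplotlib 3.10.9 were used, and the interval and ratio steps were tested on simulated data. Genes, lists and gates were chosen with earlier results of these data known. By rule the text names every promoter region, the strongest shared intragenic region of each gene, the 3 largest rises and falls, the strongest region called in 1 library alone, list genes past 1.5-fold, and 3 nearest genes for Lin28b, Hmga2 and Igf2bp1. Strongest refers to the level in CPM, not divided by called width. A comparison of the proteins was planned and was not run, as no protein sequences were used here. A further list of cell type markers is not reported here.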

Additional observations from a re-analysis of the deposited data

How the results depend on the processing

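Each stage had a single library, so none was left out in turn, and every interval covers counting error only. No paired analysis was possible because each stage had a single library, made from other embryos. Levels of Lin28a at E14.5 and of regions with a called width under 150 bp rest on slivers of peaks, and a setting that leaves such regions out was chosen after seeing the data. The counts over the let-7 list and the sequence features were not recomputed under the alternatives, and shares of nuclei were read with and without thinning only.

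For the E16.5 over E12.5 comparison, the intragenic median (-0.49) lay between -0.64 and -0.33 under the 10 alternatives run. Over all comparisons 32 medians and 35 counts stayed near their main values and 27 and 9 moved. The promoter median (-0.29) was -0.18 where peaks had to overlap reciprocally by 50%, -0.37 with CPM over all peaks, -0.18 on nuclei with a count and -0.15 without the deepest 5% of nuclei. The 2 falling promoters became 1 under reciprocal overlap, at a 2-fold limit, with at least 100 fragments and with at least 150 bp called. The 10 rising intragenic regions became 3 under reciprocal overlap, 4 at 2-fold, 6 with at least 100 fragments and 6 per kb, and the 16 falling became 7 under reciprocal overlap, where 14 intragenic and 5 promoter regions were left. Per kb 16% of all intragenic regions rose. The shares of all regions at the other settings are not given here, so these counts do not set the members apart.

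The steps through E14.5 depended more on the processing. The intragenic E14.5 over E12.5 median (-0.67) was 0.34 per kb, the opposite direction, and -0.26 when scaled to the median of its class. All intragenic regions turned in the same way, with -0.41 in CPM and 0.33 per kb. For E16.5 over E14.5 all intragenic regions had 0.37 in CPM and -0.50 per kb. The E16.5 over E14.5 intragenic median (0.35) was -0.23 under reciprocal overlap, 0.10 with CPM over all peaks, 0.10 with at least 100 fragments, 0.10 with at least 150 bp, -0.73 per kb and -0.018 when class-scaled. The promoter E14.5 over E12.5 median (0.06) was 0.28 under reciprocal overlap, 0.24 over all peaks, 0.19 with at least 100 fragments or 150 bp, 0.22 on nuclei, 0.55 per kb, -0.065 with a window of 2000 and 500 bp, -0.18 class-scaled and 0.18 without the deepest nuclei. For E16.5 over E14.5 (-0.40) it was -0.52, -0.65, -0.45 and -0.45 under the first 4 of these, -0.83 per kb, -0.34 with the wider window and -0.12 class-scaled. The cause of these shifts was not tested.

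In the 5% gate the cartilage log2 ratio at E12.5 was 0.21 for intragenic and 0.24 for promoter regions (10% gate 0.08 and 0.15). The dermal fibrogenic one was 0.22 for promoters at E14.5 and 0.16 for intragenic regions at E16.5 (10% gate 0.16 and 0.12). The fibrogenic one was -0.069 and -0.27 for intragenic and promoter regions at E12.5 and -0.11 for promoters at E16.5. In the 10% gate these were 0.06, -0.14 and -0.06, so the fibrogenic intragenic ratio turned sign. At E12.5 the check loci of the fibrogenic gate were not higher in gated nuclei. Among single genes and regions, Ago2 turned to -0.017 and the Hmga1 intragenic region to -0.039 per kb. The Lin28a sum turned to 0.28 under reciprocal overlap, with at least 100 fragments and with at least 150 bp, where its upstream region alone was left. Of the other values of named genes and regions, 49 and 143 stayed within the main counting interval, and 25 and 30 moved beyond it. The sign turned in 5 and 3 of these. The Igf2bp3 sum (0.04) went to -0.47 under reciprocal overlap, -0.33 with at least 100 fragments, -0.044 over all peaks and -0.12 per kb, and the Igf2bp2 sum (0.18) to -0.011 per kb. The Hmga2 promoter (-0.06) went to 0.073 without the deepest nuclei, and the Igf2bp2 promoter (0.06) to -0.018 over all peaks and -0.072 per kb.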
